A study of Homo sapiens with 60 samples.

Results

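A549 cells, a long-established lung adenocarcinoma line of human origin with alveolar epithelial character, were compared after 24 h in a high and a medium dose of an extract of Scutellariae Radix, the root of the skullcap Scutellaria baicalensis. The 6 libraries were chosen by their labels alone, 3 at 190 µg/mL and 3 at 38 µg/mL, out of 60 in the series. The extract was made from dried root with 70% ethanol. In the series text the top dose of an extract is the one that inhibits by 20% (its IC20) where that lies below 500 µg/mL, and the other doses are 5-fold and 25-fold dilutions of it. For reference, 3 libraries at 7.6 µg/mL of the same extract, 3 vehicle libraries, and 3 libraries each of the ethanol extract of Pinelliae Tuber at 500 and 100 µg/mL were used, all at 24 h in the same cells. The sample labels give the vehicle as 0.1% DMSO and the series text as 2% DMSO. The labels do not say whether replicates were separate cultures, and the p-values given here reflect library-to-library spread that may be technical.

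Scutellaria root is rich in flavones such as baicalin, baicalein and wogonin. Mammalian cells answer a shortage of amino acids, a disturbed endoplasmic reticulum (ER) or other stresses by slowing translation and making more of the transcription factor ATF4, which acts on genes for amino acid synthesis, amino acid import and tRNA charging. Misfolded protein in the ER also engages the sensors IRE1 and ATF6, which act on ER chaperone genes, while the factor HSF1 controls cytosolic heat shock proteins. Flavones as a class include ligands of the aryl hydrocarbon receptor (AhR), whose targets include CYP1B1 and TIPARP.

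Promoters of 6 genes from groups whose members changed together, described below, are shown to let their known regulatory motifs be seen. They are reference sequence from RefSeq (GRCh38.p14), each covering the 250 bases upstream of a start in RefSeq and printed in the direction of transcription. Gene positions in later paragraphs came from GENCODE, whose gene bounds can differ from those starts. By the GENCODE bounds, the windows of CHAC1, HSPA8 and HSP90AA1 lie inside the gene. Those of ASNS and ANLN overlap the gene's start, and that of HSPA5 lies upstream of it. Capitals mark matches on either strand to the motif of that gene's group. For the ATF4 groups this is the composite element TGATGNAA, found at ASNS (chr7:97872409-97872658, minus strand) and CHAC1 (chr15:40953221-40953470, plus strand). HSPA8 (chr11:123062137-123062386, minus strand) and HSP90AA1 (chr14:102087045-102087294, minus strand) carry the heat shock element, searched as 3 alternating inverted repeats of GAA with 2 free bases between each. HSPA5 (chr9:125241344-125241593, minus strand) carries the ER stress element, searched as CCAAT and CCACG with 9 free bases between. ANLN (chr7:36389612-36389861, plus strand) carries the cell cycle homology region, searched as TTTGAA or TTCGAA.
ASNS: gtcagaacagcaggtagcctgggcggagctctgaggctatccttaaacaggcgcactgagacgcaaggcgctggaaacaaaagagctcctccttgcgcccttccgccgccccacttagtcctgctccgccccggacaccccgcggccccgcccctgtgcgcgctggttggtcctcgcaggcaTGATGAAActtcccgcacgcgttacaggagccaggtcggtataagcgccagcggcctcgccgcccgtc
CHAC1: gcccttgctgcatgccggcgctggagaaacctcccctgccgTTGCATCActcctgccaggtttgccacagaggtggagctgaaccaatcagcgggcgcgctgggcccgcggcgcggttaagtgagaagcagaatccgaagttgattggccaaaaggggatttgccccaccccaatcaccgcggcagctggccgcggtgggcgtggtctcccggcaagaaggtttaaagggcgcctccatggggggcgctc
HSPA8: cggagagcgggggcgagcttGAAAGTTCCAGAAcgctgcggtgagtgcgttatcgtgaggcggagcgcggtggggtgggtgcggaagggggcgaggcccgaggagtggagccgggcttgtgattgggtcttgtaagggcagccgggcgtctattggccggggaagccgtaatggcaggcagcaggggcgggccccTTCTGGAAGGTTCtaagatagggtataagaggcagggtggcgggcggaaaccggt
HSP90AA1: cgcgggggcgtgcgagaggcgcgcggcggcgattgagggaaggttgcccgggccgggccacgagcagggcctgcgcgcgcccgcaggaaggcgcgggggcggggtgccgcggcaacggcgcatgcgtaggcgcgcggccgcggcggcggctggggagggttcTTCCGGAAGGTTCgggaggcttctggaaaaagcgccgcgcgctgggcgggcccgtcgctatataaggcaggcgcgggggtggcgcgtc
HSPA5: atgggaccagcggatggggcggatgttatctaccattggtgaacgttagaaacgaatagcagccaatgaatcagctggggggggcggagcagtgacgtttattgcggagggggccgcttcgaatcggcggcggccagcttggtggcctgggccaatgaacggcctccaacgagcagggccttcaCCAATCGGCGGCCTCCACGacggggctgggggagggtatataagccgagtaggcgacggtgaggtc
ANLN: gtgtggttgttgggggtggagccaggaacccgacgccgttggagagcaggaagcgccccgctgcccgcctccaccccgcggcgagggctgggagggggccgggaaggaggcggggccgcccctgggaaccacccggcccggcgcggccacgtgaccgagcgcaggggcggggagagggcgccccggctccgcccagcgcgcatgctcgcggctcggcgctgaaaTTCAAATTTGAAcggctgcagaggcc

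The ATF4 element was present in the windows of 9 of the 42 genes matched to a promoter among the 52 of the ATF4, amino acid and tRNA lists described below (21.4%), against 3.89% of the 27305 genes with a window. It was also present in 9 of the 75 matched among the 115 genes that rose at least 2-fold (12%). The heat shock element was found in 5 of 16 matched heat shock protein genes (31.2%), against 0.557% of all. For the ER stress element the share was 7 of 19 ER genes (36.8%), against 0.0916% of all. The cell cycle homology region, a short motif, was found in 16 of 25 matched mitosis genes (64%) and in 17.2% of all. A match describes the letters of a window, and binding was not measured. The lists hold genes with known control of this kind, so their higher shares are not a result of these data.

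Between 38 and 190 µg/mL, 2416 genes rose and 2428 fell, together 4844 of the 16582 tested (29.2% called at an adjusted p under 0.05, with 14.6% called in each direction). Most changes were small. In 4137 of the called genes the change was under 0.5 on the log2 scale, and the median size of a called change was 0.24. At least 2-fold changes were called in 115 genes that rose and 39 that fell (0.929% of those tested), mostly genes of low level. Over the 115 the median level was 1.21 CPM (counts scaled to a common, TMM-adjusted library size), against 16.4 CPM over all genes tested. The CPM ranges of the 3 high and the 3 medium libraries did not overlap in 6661 genes (40.2%). In a bulk library, a difference in the number of cells in a state and a difference in RNA per cell cannot be told apart.

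The step below, from 7.6 to 38 µg/mL, gave 5 called genes (0.0302%), 2 higher (0.0121%) and 3 lower (0.0181%), with 903 genes at an unadjusted p under 0.05, and 1671 genes without overlap (10.1%). The 5, named after their values were seen, were CYP1B1, TIPARP and the unnamed gene ENSG00000279322, which were lower, and NPTX1 and the read-through gene RPL17-C18orf32, which were higher; the last overlaps RPL17, so its reads are uncertain. NPTX1 stood at 396 to 410 CPM at the medium and 333 to 358 CPM at the low dose, and lost its call when low replicate 1 or any medium replicate was left out. RPL17-C18orf32 and ENSG00000279322, both under 5 CPM in these 6 libraries, lost theirs without low replicate 1 or 3 or medium replicate 2 or 3, and ENSG00000279322 also without medium replicate 1. Both steps share the medium libraries. A direct test of the upper step minus the lower step called 1686 genes (10.2%), 787 with the more positive (4.75%) and 899 with the more negative upper step (5.42%). Of the 2416 genes that rose, 2304 had medium libraries neither all above nor all below the range of the vehicle and low libraries. Of the 2428 that fell, 2338 did. That was also the case for 16009 of all 16582 genes. The 3 high libraries lay beyond that range on the side of the change in 1869 of the genes that rose and 1857 of those that fell. Over all 16582 genes they lay beyond it, on either side, in 5188. The first principal component held 38.4% of the variance over 21 libraries. On it the high libraries scored 19.1 to 20.8, while the medium libraries scored -2.10 to -0.98, the low libraries -3.15 to -2.13 and the vehicle libraries -6.01 to -5.31. On the second (11.7%) the vehicle libraries stood apart, at -12.2 to -7.07. There the high libraries scored -4.70 to 0.41, the medium libraries 1.59 to 2.99 and the low libraries 1.82 to 3.45.

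**Figure D1:**
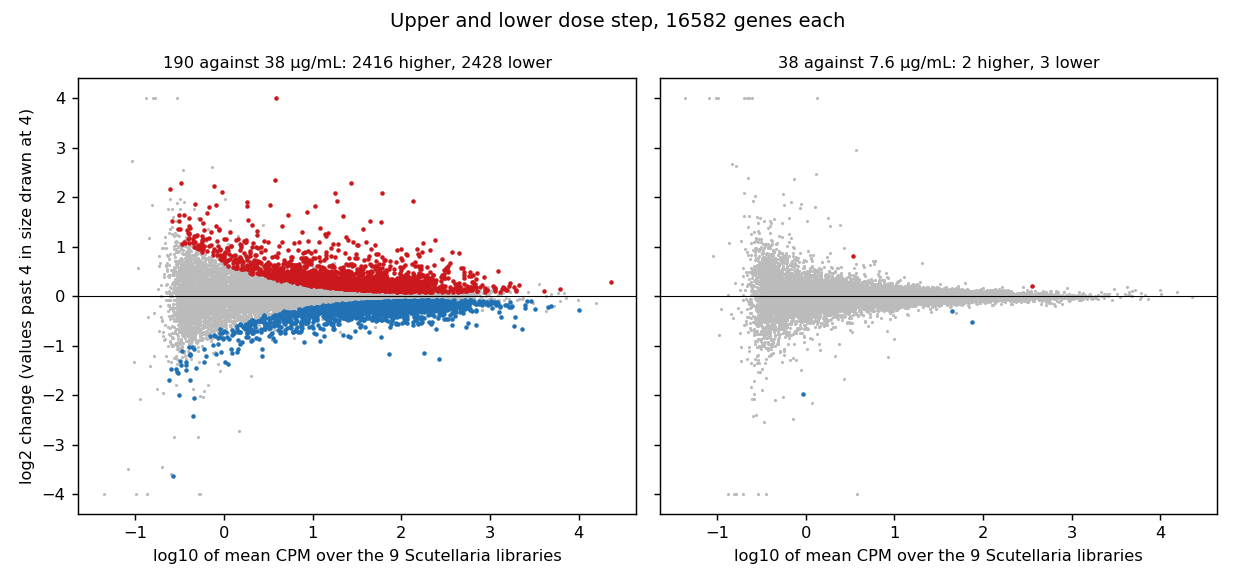
Log2 change of each tested gene across the upper step (left, 190 against 38 µg/mL) and the lower step (right, 38 against 7.6 µg/mL), against the log10 of its mean CPM over the 9 Scutellaria libraries, with genes called higher in red, called lower in blue and the rest in grey. The upper step has 2416 red and 2428 blue points and the lower step 2 and 3; changes beyond 4 in size are drawn at 4.

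The high libraries held 22.5 to 23.3 M (mega) counts in total and the medium libraries 20.1 to 24.9 M. The mitochondrial share was 9.10% to 9.55% at the high dose and 8.89% to 10.1% at the medium dose, and the 2 ranges overlapped. Keratin genes KRT8 and KRT18, and AKR1B10 and ALDH1A1, all abundant in A549 cells, were high in all 6 libraries, the lowest value being 2227 CPM for KRT18. The alveolar genes NKX2-1, SFTPB, SFTPC and SFTPA1 were each under 1 CPM. All 6 endothelial and all 8 hepatocyte markers were under 1 CPM in all 6 libraries, as were 7 of 10 leukocyte markers. Fibroblast markers summed to 26.3 to 29.1 CPM at the high dose and 35.9 to 39.4 CPM at the medium dose, mostly COL1A1, with 5 of 8 under 1 CPM. Neuronal markers summed to 102.8 to 107.7 and 87.5 to 94.9 CPM, with 3 of 6 under 1 CPM. The part of these marker differences in the other results was not tested.

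Most listed genes of the ATF4 programme rose. Of the 15 transcription factors and feedback genes listed for it, 13 rose (14.6% of all genes did) and none fell. Their median change was 1.22 on the log2 scale, against 0.004 over all genes tested. The list also holds stress-induced genes such as NIBAN1 and STC2. Members of this and the lists below were chosen with earlier results of these data known, so their shares only describe them. Across the upper step, 14.6% of all genes tested were called in each direction, the share to set beside each list. Summed over the list, the 3 high libraries held 1785 to 1831 CPM and the 3 medium libraries 876 to 909 CPM. Vehicle libraries held 872 to 904 CPM and low libraries 846 to 886 CPM. ATF4 mRNA itself stood at 347, 357 and 336 CPM in the high libraries and 264, 248 and 258 CPM in the medium libraries, a change of 0.43 ± 0.03 (SE, log2, adjusted p = 4.16e-14). ATF5 changed by 0.01, and CEBPB by 0.36 ± 0.21 (adjusted p = 0.226); neither passed the test.

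NIBAN1 (ENSG00000135842, chr1:184790724-184974550), a stress-induced gene linked to translation control, was at 56.1, 62.3 and 57.1 CPM at the high dose and 11.99, 12.2 and 11.7 CPM at the medium dose. All 3 high libraries were far above every medium library, and the medium libraries sat near the vehicle mean of 10.7 CPM. The change was 2.29 ± 0.06 (SE, log2), or 4.90-fold (adjusted p = 2.63e-27). DDIT3 (chr12:57516588-57521737), which encodes the pro-apoptotic factor CHOP, was at 35.6, 37.9 and 33.5 CPM against 9.13, 8.27 and 7.73 CPM, a 4.27-fold rise. STC2, a secreted glycoprotein of the stress response, stood at 126, 124 and 122 CPM against 28.2, 30.7 and 28.8 CPM (4.25-fold). For both genes the groups were far apart and the medium libraries near the vehicle means of 9.95 and 28.9 CPM. A lack of overlap was a condition for naming the genes of largest change, such as NIBAN1, DDIT3 and STC2. For those genes it is not a separate result.

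TRIB3 (chr20:362835-397559), a pseudokinase that restrains ATF4, was at 278, 277 and 267 CPM at the high dose and 72.8, 74.6 and 68.6 CPM at the medium dose (3.81-fold, adjusted p = 2.73e-31). CHAC1 (chr15:40952962-40956519), which degrades glutathione and whose promoter is printed above, was at 20.2, 21.2 and 21.2 CPM against 5.92, 5.13 and 6.52 CPM (3.54-fold). SESN2, an inhibitor of mTORC1 signalling, stood at 37.7, 40.3 and 43.4 CPM against 12.6, 12.8 and 13.8 CPM (3.08-fold). In each of the 3 genes the high and medium ranges were well separated, and a lack of overlap was a condition of naming them. ATF3, a stress-induced repressor, rose 2.60-fold, DDIT4, another mTORC1 inhibitor, 2.18-fold, and NUPR1, a small stress protein, by 1.22 on the log2 scale. PPP1R15A, the phosphatase subunit that reverses the block on translation, rose by 1.09 ± 0.05 on the log2 scale.

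**Figure D2:**
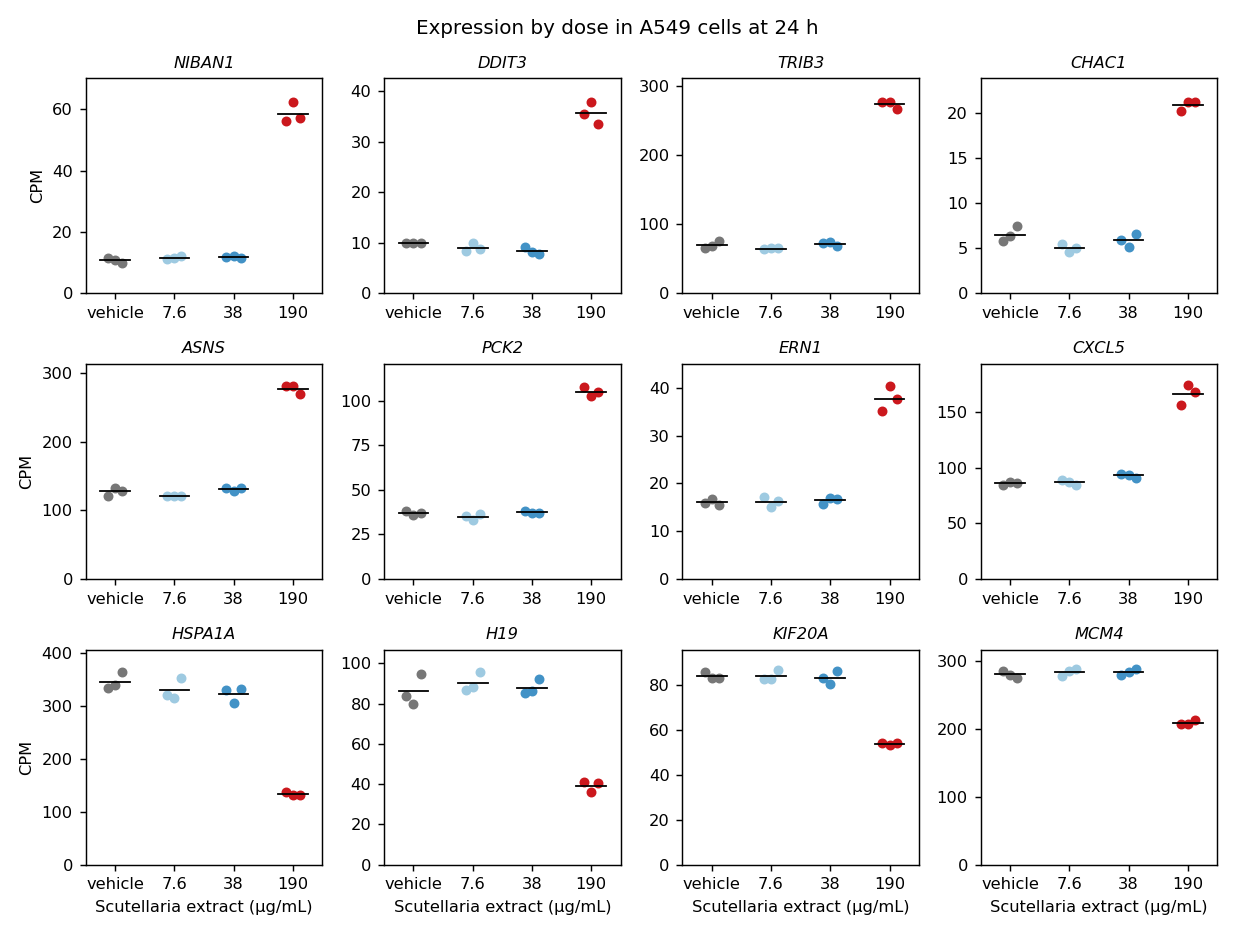
CPM (linear axes from 0) of 12 genes in the 3 vehicle libraries and the 3 libraries at each Scutellaria dose, with points for libraries and a bar for the group mean. In all 12 panels the 190 µg/mL points lie apart from the other 9, as for NIBAN1 at 56.1 to 62.3 CPM against 11.7 to 12.2 CPM at 38 µg/mL.

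Enzymes that make serine, asparagine, proline and folate one-carbon units rose in 12 of 14 cases, with none lower and a median change of 0.88. Asparagine synthetase, ASNS (chr7:97852118-97872542), was at 282, 281 and 270 CPM at the high dose and 132, 128 and 132 CPM at the medium dose, 2.12-fold (adjusted p = 1.52e-25). PCK2, the mitochondrial phosphoenolpyruvate carboxykinase, stood at 108, 103 and 105 CPM against 37.9, 37.1 and 37.0 CPM (2.81-fold). Both genes were without overlap between doses, which for PCK2 was a condition of naming it. ALDH1L2, a mitochondrial folate enzyme, rose 2.85-fold, from 25.3 to 28.5 CPM in the medium libraries to 76.2 to 78.1 CPM in the high ones. The serine pathway enzymes PHGDH, PSAT1 and PSPH rose by 0.96, 0.86 and 0.45 on the log2 scale, and MTHFD2, the mitochondrial folate dehydrogenase, by 0.89 ± 0.03. CBS, the first enzyme from homocysteine to cysteine, rose by 1.35 ± 0.05, while CTH, the next one, stood at -0.09 and did not pass the test, as did ALDH18A1 at -0.01.

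Amino acid transporters rose in all 10 tested of 11 listed, with a median change of 0.56; SLC7A3 did not pass the filter on low counts. SLC6A9, a glycine carrier, was at 22.9, 23.9 and 23.1 CPM against 9.38, 9.33 and 10.3 CPM (2.40-fold). SLC1A4, a carrier of serine, alanine and other neutral amino acids, was at 76.9, 78.7 and 76.7 CPM against 37.8, 38.2 and 37.9 CPM (2.04-fold). SLC38A2 and SLC38A1, carriers of glutamine and other neutral amino acids, rose 1.49-fold and 1.48-fold. The most abundant member, the leucine transporter SLC7A5 at 3832 to 4341 CPM, rose by 0.10 ± 0.04 on the log2 scale (adjusted p = 0.031). Cytosolic tRNA synthetases, which load tRNAs with amino acids, rose in 12 of 13 cases with a median change of 0.43. GARS1, for glycine, stood at 391, 411 and 390 CPM against 234, 239 and 240 CPM (1.67-fold), and SARS1, AARS1 and MARS1, for serine, alanine and methionine, rose 1.66-fold, 1.58-fold and 1.49-fold. VARS1, for valine, changed by 0.005 and did not pass the test.

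ER chaperones and unfolded protein response genes rose in 14 of 19 tested and fell in 1, with a median change of 0.23. ERN1, which encodes the sensor IRE1, was at 35.2, 40.3 and 37.8 CPM against 15.7, 17.0 and 16.6 CPM (2.30-fold, adjusted p = 7.26e-17). HERPUD1, a factor of ER-associated degradation, was at 77.1, 80.5 and 78.2 CPM against 46.2, 41.6 and 43.4 CPM (1.80-fold). HSPA5 (chr9:125234853-125241330), the main ER chaperone BiP, was at 906, 905 and 851 CPM against 665, 635 and 617 CPM (1.39-fold). None of the 3 genes overlapped between doses. HYOU1, another lumenal chaperone, rose 1.49-fold, and XBP1, the factor activated by IRE1, by 0.70 ± 0.09 on the log2 scale. The calcium-binding chaperone CALR fell by 0.21 ± 0.03, from 459, 439 and 470 CPM to 402, 387 and 395 CPM. HSP90B1, whose window holds 2 ER stress elements, rose by 0.12, and PDIA6 and CRELD2, whose windows hold 1 each, stood at 0.07 and 0.09 and did not pass the test.

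Cytosolic heat shock proteins moved the other way. Of 19 tested, 16 fell and 1 rose, with a median change of -0.46. The list's sum was 7740 to 8026 CPM in the high libraries and 11149 to 11472 CPM in the medium libraries. HSPA1A (chr6:31815464-31817946), the stress-inducible HSP70, was at 138, 132 and 131 CPM against 331, 306 and 332 CPM, and fell by 1.27 ± 0.05 (log2, adjusted p = 3.31e-18). HSPA1B (chr6:31827735-31830255) was at 104, 91.0 and 101 CPM against 225, 216 and 212 CPM, and fell by 1.14 ± 0.04. These genes are near-identical copies, so the split of reads between them is uncertain. Both had separate ranges at the 2 doses, but that was a condition of naming them. It does not show that each copy fell by itself.

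Abundant members fell as well. HSP90AA1, the stress-responsive HSP90, was at 1726, 1656 and 1646 CPM against 2623, 2639 and 2669 CPM (0.634-fold). HSPA8, the constitutive HSC70, was at 1392, 1346 and 1397 CPM against 2101, 2054 and 2170 CPM (0.654-fold). Both genes carry heat shock elements in the windows printed above. HSPA2, a testis-enriched HSP70, fell to 0.561-fold, from 66.9 to 71.3 CPM down to 38.5 to 39.5 CPM. The member that rose was HSF1, the regulator itself, at 92.5, 88.1 and 92.7 CPM against 76.0, 77.6 and 79.0 CPM (0.23 ± 0.04, log2). CRYAB (-0.40) and HSPB1 (-0.13) did not pass the test.

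**Figure D3:**
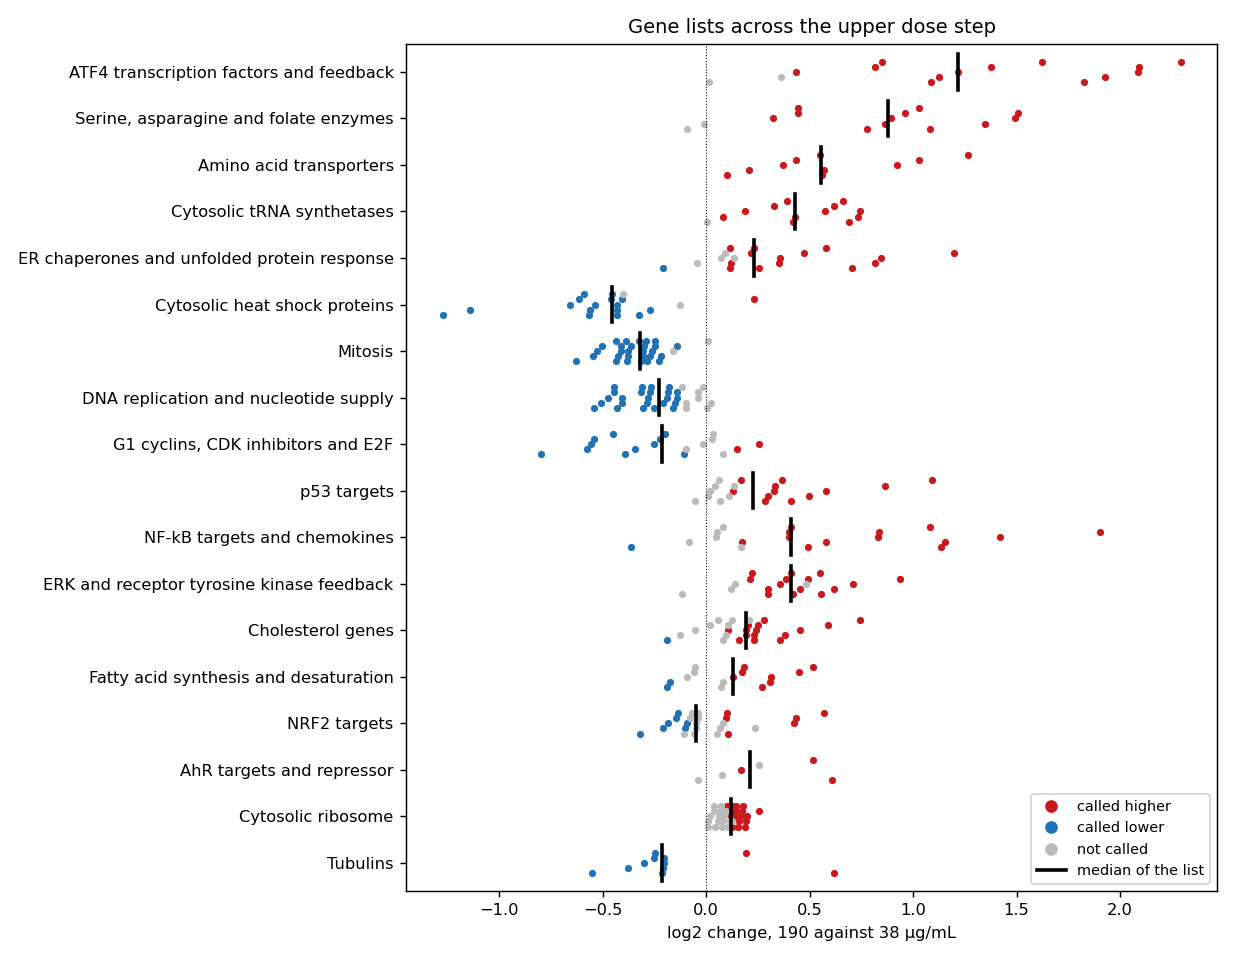
Log2 change from 38 to 190 µg/mL of every tested member of 18 gene lists, coloured by call, with a black bar at each list's median; vertical offsets within a row only separate points. The ATF4, amino acid and tRNA lists lie to the right (medians 1.22, 0.88, 0.56 and 0.43), and the heat shock, mitosis and replication lists to the left (medians -0.46, -0.32 and -0.23).

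Proliferation genes fell by moderate amounts. Of 30 mitosis genes, 28 fell and none rose, with a median change of -0.32, and the list's sum was 3864 to 3894 CPM at the high dose and 4815 to 4976 CPM at the medium dose. KIF20A (chr5:138178719-138187715), a kinesin of cytokinesis, was at 54.2, 53.5 and 54.4 CPM against 83.2, 80.8 and 86.3 CPM (0.647-fold, adjusted p = 9.62e-17). AURKA, the spindle pole kinase, was at 119, 116 and 118 CPM against 178, 165 and 172 CPM (0.684-fold). ANLN, a contractile ring protein with the promoter printed above, fell to 0.693-fold, and CCNB1, the mitotic cyclin, 0.769-fold. The kinase regulator CDC25C (0.01) and the centromeric histone CENPA (-0.16) did not pass the test.

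DNA replication and nucleotide supply genes fell in 24 of 32 cases, none rose, and the median change was -0.23. RRM2, the regulated subunit of ribonucleotide reductase, was at 239 CPM in each high library and at 332, 330 and 332 CPM in the medium libraries (0.721-fold, adjusted p = 5.63e-16). FEN1, the flap endonuclease of lagging-strand synthesis, was at 82.9, 77.7 and 77.4 CPM against 120, 114 and 113 CPM (0.687-fold). The helicase subunits MCM4 and MCM6 fell to 0.735-fold and 0.742-fold. Among G1 cyclins, CDK inhibitors and E2F factors, 11 of 18 fell and 2 rose, with a median of -0.21. CDKN2C, an inhibitor of CDK4 and CDK6, was at 8.88, 8.81 and 8.63 CPM against 14.6, 15.8 and 15.3 CPM (0.576-fold). CCND3, a D-type cyclin, fell to 0.686-fold and E2F8, a repressive E2F, 0.680-fold, while MYC rose 1.19-fold, from 139 to 143 CPM up to 166 to 173 CPM.

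Targets of p53 rose in 12 of 20 cases with none lower (median 0.23). GDF15, a stress cytokine that ATF4 and CHOP also control, was at 44.3, 44.4 and 41.8 CPM against 21.1, 19.2 and 20.8 CPM (2.13-fold). TNFRSF10B, the death receptor DR5 and likewise a CHOP target, was at 245, 255 and 249 CPM against 172, 168 and 162 CPM (1.49-fold). CDKN1A, the CDK inhibitor p21, was at 139, 153 and 150 CPM against 101, 103 and 109 CPM (1.41-fold). MDM2, the ubiquitin ligase of p53, rose 1.26-fold, from 167 to 175 CPM up to 204 to 229 CPM. Members that did not pass the test included BAX (0.07), ZMAT3 (0.01) and RRM2B (0.06), an effector of cell death, an RNA-binding protein and a ribonucleotide reductase subunit.

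NF-kB targets and chemokines rose in 13 of 19 tested and fell in 1 (median 0.41), and 5 of the 24 listed were too low to test. CXCL5, a neutrophil chemokine, was at 157, 175 and 168 CPM against 94.7, 94.0 and 91.0 CPM (1.79-fold). CXCL8, or interleukin 8, was at 3.97, 3.55 and 3.80 CPM against 1.13, 0.967 and 0.931 CPM, a 3.74-fold rise at a low level. CXCL2 was at 6.79, 8.99 and 7.26 CPM against 2.91, 2.61 and 3.04 CPM (2.68-fold). BIRC3, an inhibitor of apoptosis, rose 1.40-fold, while the feedback inhibitor NFKBIA stood at 0.08 and did not pass the test, and CCL2 fell by 0.36 ± 0.13. Interferon-stimulated genes showed 2 rises and 1 fall among 16 tested (median -0.006), with OAS1, an antiviral enzyme, 0.819-fold.

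Feedback genes of ERK and receptor tyrosine kinase signalling rose in 15 of 19 cases with none lower (median 0.41). EREG, an epidermal growth factor receptor ligand, was at 290, 324 and 300 CPM against 161, 160 and 157 CPM (1.91-fold, adjusted p = 2.22e-21). AREG, a related ligand, was at 71.2, 67.4 and 67.2 CPM against 42.9, 41.2 and 41.7 CPM (1.64-fold). DUSP5, a nuclear ERK phosphatase, rose 1.46-fold and PHLDA1 1.37-fold. Of the immediate early and NR4A transcription factors, 11 of 20 rose and 1 fell (median 0.27). KLF2, a zinc finger factor, was at 13.5, 13.4 and 13.3 CPM against 6.07, 5.95 and 6.56 CPM (2.16-fold), FOSL1 and JUN of AP-1 rose 1.70-fold and 1.47-fold, and NR4A1 stood at -0.06 ± 0.05 (95% interval -0.16 to 0.04) and did not pass the test.

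Lipid genes gave lists with small median changes. The list of cholesterol genes had 15 rises and 1 fall among 25 (median 0.19). INSIG1, which retains the sterol sensor in the ER, was at 57.0, 59.6 and 56.4 CPM against 36.2, 35.5 and 32.0 CPM (1.67-fold). HMGCS1, the first committed synthase, was at 215, 222 and 212 CPM against 224, 214 and 202 CPM, with overlap and a change of 0.02 ± 0.04 (95% interval -0.05 to 0.09) whose sign turned when high replicate 2 or medium replicate 3 was left out. Fatty acid synthesis and desaturation had 8 rises and 2 falls among 15 tested (median 0.13), led by SCD, the stearoyl-CoA desaturase, 1.43-fold. Fatty acid oxidation had 4 rises and no fall among 12 tested (median 0.04), near the 29.2% of all genes called in either direction. The lipid droplet protein PLIN2 rose 1.28-fold.

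NRF2 targets, the antioxidant and conjugating enzymes that A549 cells express at high levels, did not move as a group. Of 25, 6 rose and 7 fell, and the median was -0.05. HMOX1, haem oxygenase, was at 212, 215 and 216 CPM against 158, 155 and 166 CPM (1.34-fold), ABCC3, an efflux pump, rose 1.48-fold and SLC7A11, the cystine importer that ATF4 also controls, 1.35-fold. GSR, glutathione reductase, fell to 0.800-fold. NQO1, the quinone reductase, was at 1514, 1447 and 1439 CPM against 1559, 1475 and 1494 CPM, and its change of -0.04 ± 0.03 (95% interval -0.10 to 0.02) did not pass the test.

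The AhR targets CYP1B1 and TIPARP did not follow the dose in order. CYP1B1 (ENSG00000138061, chr2:38066973-38109902), a cytochrome P450 that oxidises polycyclic hydrocarbons and oestradiol, was at 83.3, 87.4 and 89.3 CPM at the high dose, 60.8, 55.5 and 54.3 CPM at the medium dose, 86.5, 76.1 and 81.6 CPM at the low dose and 58.8, 54.5 and 57.1 CPM in vehicle. The high and low libraries were both above all medium and all vehicle libraries. CYP1B1 rose across the upper step by 0.61 ± 0.05 (adjusted p = 1.50e-13) and fell across the lower step by 0.52 ± 0.05 (adjusted p = 3.53e-09), and the steps differed by 1.13 ± 0.08 (adjusted p = 3.69e-13). TIPARP, a mono-ADP-ribosyltransferase that represses the receptor, was at 49.2, 57.2 and 51.3 CPM at the high dose, 36.4, 36.8 and 37.0 CPM at the medium dose, 48.6, 44.2 and 43.1 CPM at the low dose and 36.2, 35.5 and 34.5 CPM in vehicle. It rose by 0.52 ± 0.05 and fell across the lower step by 0.30 ± 0.05 (adjusted p = 0.00641), a fall that lost its call without low replicate 1 or medium replicate 2, with adjusted p from 2.8e-05 to 0.232 over the alternatives.

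In the Pinellia libraries, CYP1B1 stood at 55.5 ± 2.28 CPM (SD, n = 3) at 500 µg/mL and 75.4 ± 1.11 CPM at 100 µg/mL, so the level between doses of that extract also varied. TIPARP there stood at 37.7 ± 0.80 and 42.3 ± 1.03 CPM. ALDH3A1, an aldehyde dehydrogenase, was at 662, 670 and 674 CPM at the high Scutellaria dose against 585, 600 and 601 CPM at the medium dose. It stood at 679, 660 and 723 CPM at the low dose and 672, 648 and 758 CPM in vehicle. Its rise across the upper step (1.12-fold, adjusted p = 0.0211) lost its call when any 1 of the 6 libraries was left out. CYP1A1, the classical target, stood at 1.11, 0.921 and 0.811 CPM against 0.888, 0.822 and 0.688 CPM with overlap, and did not pass the test. Of 6 AhR genes tested, 3 rose and none fell across the upper step (median 0.21), and 2, CYP1B1 and TIPARP, were called across the lower step.

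**Figure D4:**
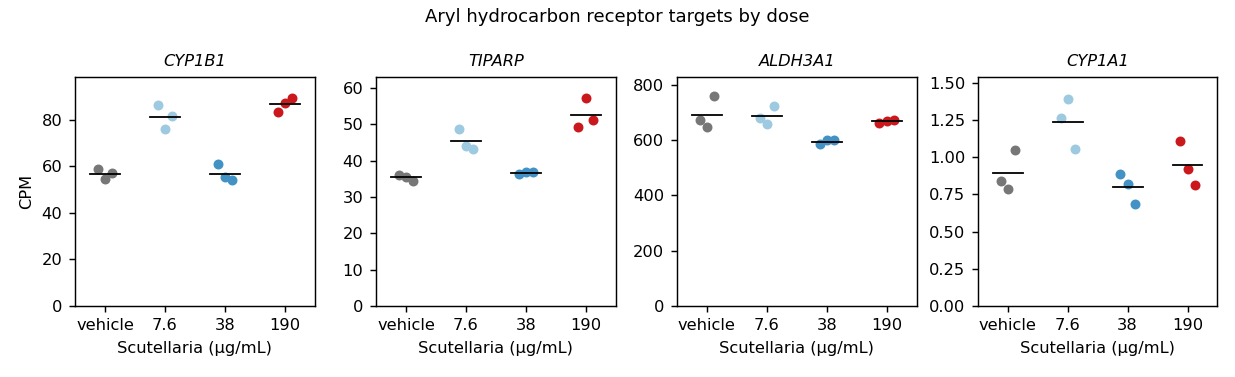
CPM (linear axes from 0) of 4 AhR target genes in the 3 vehicle libraries and the 3 libraries at each Scutellaria dose, with points for libraries and a bar for the group mean. CYP1B1 and TIPARP are higher at 7.6 and 190 µg/mL than in vehicle and at 38 µg/mL, while CYP1A1 is near 1 CPM throughout.

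Matrix, growth factor and lineage genes gave mixed lists with some larger single changes. H19 (chr11:1995176-2001470), an imprinted long non-coding RNA, was at 41.0, 36.1 and 40.4 CPM against 85.2, 86.4 and 92.1 CPM, and fell by 1.17 ± 0.06 (log2, adjusted p = 2.01e-14). TGF-beta targets, collagens and matrix genes showed 5 rises and 8 falls among 27 tested (median -0.04). Among them SPARC, a matrix glycoprotein, fell to 0.702-fold. GREM1, a secreted BMP antagonist, was at 10.1, 10.6 and 10.7 CPM against 4.89, 4.79 and 5.10 CPM (2.12-fold), and the BMP list showed 2 rises and 5 falls among 14 tested. Wnt targets showed 4 falls and no rise among 6 tested (median -0.31), with RNF43, a Wnt receptor ligase, 0.606-fold.

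Among other genes with the largest falls, ARRB1, beta-arrestin 1, was at 5.00, 4.60 and 5.51 CPM against 9.82, 9.77 and 9.27 CPM (0.525-fold). SEMA6B, a semaphorin, was at 7.69, 7.10 and 8.37 CPM against 14.9, 14.3 and 14.3 CPM (0.533-fold). Neither gene overlapped between doses, which was a condition of naming them. BAAT, the bile acid conjugating enzyme, fell to 0.566-fold, FAM111B 0.575-fold, the tetraspan protein TM4SF4 0.576-fold, the Wnt-binding protein SFRP4 0.590-fold and BCAS1 0.597-fold. Among the largest rises outside the ATF4 list, TSC22D3, a leucine zipper protein also known as GILZ, was at 36.3, 39.8 and 35.5 CPM against 10.6, 9.77 and 9.23 CPM (3.79-fold), and ULBP1, a ligand of a natural killer cell receptor, at 9.10, 11.0 and 9.61 CPM against 3.65, 3.14 and 2.79 CPM (3.11-fold). TSC22D3 is a glucocorticoid target, and that list otherwise gave 2 rises and 3 falls among the other 8 tested, with SGK1, a kinase, 0.722-fold. FKBP5, another such target, stood at 27.2, 26.7 and 26.1 CPM against 29.1, 29.3 and 29.5 CPM, and its fall of 0.14 ± 0.05 (adjusted p = 0.0359) was called but lost in 9 alternative settings, 5 of them the leaving out of 1 library (high replicate 2 or 3, or any medium replicate).

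Hypoxia and glycolysis genes showed 6 rises and 11 falls among 30 (median -0.05). VEGFA, the angiogenic factor that ATF4 also controls, was at 65.9, 67.6 and 65.3 CPM against 44.0, 43.2 and 42.6 CPM (1.53-fold), while PFKFB3 and PGAM1, enzymes of glycolytic flux, fell to 0.834-fold and 0.840-fold. Tubulins fell in 9 of 11 cases and rose in 2 (median -0.21), with TUBB4B at 440, 412 and 427 CPM against 599, 614 and 659 CPM (0.683-fold) and TUBB2B rising 1.53-fold. Cytosolic ribosomal protein genes rose in 17 of 34 cases with none lower, by 0.26 or less on the log2 scale (median 0.12). Their sum was 28227 to 30121 CPM at the high dose and 26332 to 27401 CPM at the medium dose. It was 27206 to 28224 CPM at the low dose and 29813 to 32501 CPM in vehicle, so the high dose did not exceed vehicle. Hosts of small nucleolar RNAs rose in 7 of 12 (median 0.16), with ZFAS1 at 129, 131 and 129 CPM against 71.7, 61.6 and 71.4 CPM (1.90-fold) and GAS5 1.53-fold. Ribosome biogenesis genes fell in 9 of 20 with none higher (median -0.08), led by the nucleolar protein NOP56, 0.858-fold. MT1X, a metallothionein, fell to 0.682-fold, and it was the member of 5 tested metallothionein and zinc export genes that passed.

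The upper step was also set against the 5-fold step from 100 to 500 µg/mL of the Pinellia extract, whose doses by weight differ from those of Scutellaria. The change differed between the extracts in 2794 genes (16.8%), 1330 with the more positive change in Scutellaria (8.02%) and 1464 with the more negative (8.83%). NIBAN1 was at 11.7 ± 1.15 CPM (SD, n = 3) at the high and 11.9 ± 0.42 CPM at the medium Pinellia dose, and its upper steps differed by 2.31 ± 0.10 (log2, adjusted p = 1.52e-20). TRIB3 stood at 69.8 ± 2.04 and 64.7 ± 1.67 CPM in Pinellia. HSPA1A stood at 355.5 ± 16.4 and 349.6 ± 3.53 CPM there, and its steps differed by -1.29 ± 0.06. H19 stood higher at the high Pinellia dose, at 88.6 ± 1.35 CPM against 72.3 ± 3.16 CPM at the medium dose, and the steps differed by -1.46 ± 0.08. The difference between extracts was called in 13 of the 15 ATF4 factors and feedback genes, 17 of the 19 heat shock proteins and 27 of the 30 mitosis genes. It uses the same high and medium Scutellaria libraries as the upper step, so these counts are not independent of the calls given above.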

How the data were processed

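Per the labels' protocols, libraries were directional mRNA preparations sequenced in pairs of 100 bp. Per the submitters' processing notes, FastQC 0.11.9, Trim Galore 0.6.5, STAR 2.7.3a and RSEM 1.3.3 were used with hg38, while the annotation release is not given in the sources used here. Expected counts per gene, which the authors deposited for 60675 Ensembl IDs, were not normalised (24.4% of non-zero values not whole). They were rounded here. Of 269 value columns, 209 were not used.

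One edgeR 4.0.16 fit (R 4.3.3) held 21 libraries (Scutellaria, Pinellia, vehicle; 14 residual degrees of freedom): filterByExpr (minimum count 10), TMM, 1 mean per group, robust glmQLFit. Contrasts were tested by quasi-likelihood F-tests with Benjamini-Hochberg adjustment over 16582 genes (called under 0.05). The script was tested on simulated data. Errors are standard errors, or standard deviations for CPM. Positions came from GENCODE 29. Symbols came from a separate gene name reference, or from GENCODE 29 where that held none.

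Named genes were the 12 called genes with the largest change in each direction (at least 5 CPM, no overlap), up to 4 of lowest p in lists with 3 or more calls, 19 followed genes (TXNIP was too low to test), and 5 per direction for each difference of steps. Further list members are named as exceptions or examples, after their values were seen. Some genes are not reported here. Members and lists were chosen with earlier results of these data known. Alternatives were RLE scaling, total counts, no filter, all 60 libraries, 6 libraries alone, DESeq2 1.42.0, a 2-fold rule, a replicate block and leaving out each library.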

Additional observations from a re-analysis of the deposited data

Results flagged for a closer look

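Effects of the upper step differed from those of the lower step, by a direct test of the difference, in 1686 genes, and from those of the Pinellia upper step in 2794 genes. These contrasts share the medium or the high Scutellaria libraries. Differences below are log2, upper minus lower step or Scutellaria minus Pinellia.

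The AhR targets CYP1B1 (1.13) and TIPARP (0.82) were called in opposite directions in the 2 Scutellaria steps. So were NPTX1 (-0.45), a neuronal pentraxin, and the unnamed gene ENSG00000279322 (4.08), which stayed under 3 CPM. Among called genes that averaged 5 CPM or more in the Scutellaria libraries, stress genes of the ATF4 response had most of the 5 largest positive differences, with NIBAN1 at 2.25, DDIT3 at 2.21, STC2 at 2.01, and TRIB3 at 1.78. The leucine zipper gene TSC22D3 was at 1.87. The most negative at that level were in HSPA1A (-1.24), H19 (-1.13), HSPA1B (-1.12), ARRB1 (-0.97) and SEMA6B (-0.94).

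Against the Pinellia step, also among genes of at least 5 CPM, NIBAN1 differed by 2.31, TSC22D3 by 2.11, STC2 by 2.07, DDIT3 by 2.02 and CHAC1 by 1.88. The most negative, at the same minimum level, were H19 at -1.46, HSPA1A at -1.29, TM4SF4 at -1.25, KRT4 at -1.09 and HSPA1B at -1.09. Groups of 3 libraries were too small for a test of single outlying libraries.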

How the results depend on the processing

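Across the upper step, 4844 genes were called, and the alternatives gave 3944 (DESeq2) to 4928 (replicate block), or 4055 to 4256 with 1 library left out. Calls that were also at least 2-fold numbered 154. The lower step gave 5 calls, 24 without a filter and 11 with DESeq2, and 1 to 8 with 1 library left out: 1 without low replicate 1 or medium replicate 2, 8 without low replicate 2, and 3 without medium or low replicate 3. CYP1B1 was called there in each setting with an adjusted p (DESeq2 gave none). With a replicate block the other counts were 6, 1745 and 2863. The labels do not say that a number pairs libraries. In their deviations from group means, same-numbered high and medium libraries correlated at -0.03, 0.04 and 0.12. Same-numbered medium and low libraries correlated at 0.14, 0.10 and 0.18, and each of these correlated best with its own number between those 2 doses, a hint from the data only. HMGCS1 ran from -0.021 (without medium replicate 3) to 0.057 (without medium replicate 1), and stood at -0.00117 without high replicate 2. With total counts the interferon median turned to 0.00634. Scaling by RLE or total counts set the median of all genes at 5.68e-05 or 0.0165, against 0.004. Calls near the threshold were lost in 3 or more settings for FKBP5, MUC5AC, MT-CO3, SPDEF, ALDH3A1, AKR1B10, UGT1A6, STAT2, MT-RNR1 and KRT18. Totals of 20.1 to 24.9 M counts limit genes under 1 CPM.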

Other observations

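Other gene groups showed single members with clear changes. Over all genes tested, 29.2% were called, 14.6% in each direction. Tight junction genes CLDN1 and OCLN rose 1.57-fold and 1.54-fold, from 111 to 116 CPM up to 168 to 185 CPM for CLDN1, while KRT4 and CLDN2 fell to 0.613-fold and 0.720-fold; the keratin and junction list had 5 rises and 6 falls among 18 tested. The fibrinogen chains FGB and FGA, liver-type secreted proteins that A549 cells also make, fell to 0.695-fold and 0.714-fold. SQSTM1 and MAP1LC3B, the autophagy adaptor p62 and its partner on autophagosomes, rose by 0.38 and 0.35 (log2) in a list with 8 rises and 4 falls among 20 tested. Of the clock genes, 4 rose and 1 fell among 15 tested, near the share called over all genes. NFIL3 and BHLHE40, repressors of the clock, rose 1.49-fold and 1.27-fold. H2AX, a variant histone, fell to 0.674-fold.

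Mitochondrial ribosomal RNA rose and no protein-coding mitochondrial gene did. MT-RNR2 was at 25951, 25995 and 26143 CPM at the high dose and 19517, 20258 and 24004 CPM at the medium dose (1.22-fold, adjusted p = 0.00898), with medium replicate 3, the library of the highest mitochondrial share (10.1%), nearest to the high libraries. It stood at 22262, 19362 and 22735 CPM at the low dose and 24520, 22770 and 23997 CPM in vehicle. The libraries were mRNA preparations, and the part of the preparation in the level of ribosomal RNA was not tested. MT-RNR1 rose 1.20-fold, a call lost without high replicate 1 or 3 or medium replicate 1 or 2. MT-CO3 was called lower (0.826-fold), a call lost in 8 settings, among them the leaving out of any library but medium replicate 2.

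The antisense gene ENSG00000258377 was listed at 0 CPM in all 3 medium libraries, at 6.71, 5.61 and 1.58 CPM in the high, 10.6, 5.25 and 4.81 CPM in the low and 6.88, 3.22 and 6.38 CPM in the vehicle libraries. It was chosen after its values were seen, it was called higher, and its fitted change is not given because the medium group is at 0.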
